A study of Mus musculus with 14 samples.

Results

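GABA-A receptor subunit genes were examined in ribosome-bound RNA of 2 groups of POMC neurons of the mouse hypothalamus. The genes are Gabra2, Gabra3, Gabra5, Gabrb1, Gabrg1, Gabrg3 and Gabrd, which were taken by their symbols. All 7 were found among the 44672 genes of the deposited table, and 12 further subunit genes of the family were found beside them. The study used translating ribosome affinity purification, in which EGFP-tagged ribosomal protein L10a is pulled down with the RNA on its ribosomes (IP) and sequenced beside RNA of the dissected tissue (input). Randomly fed mice aged 12 weeks were combined into 7 pools, and every pool gave 1 IP and 1 input library, 14 in all. In 3 pools of 12 mice, 6 of each sex, POMC Glp1r+ neurons were tagged through POMCDre+/-, Glp1rCre+/- and ROSA26lSlrSrEGFPL10a+/-. In 4 pools of 6 mice, 3 of each sex, POMC Lepr+ neurons were tagged through POMCDre+/-, LeprCre+/- and the same ROSA26 allele.

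Dre recombinase was driven by the POMC promoter from a transgene and Cre came from LeprCre or Glp1rCre, so that EGFPL10a was made only in cells with a history of both recombinases. Each library held RNA of several animals. The sources name the tissue both as hypothalamus and as dissected arcuate nucleus, so what the input contained is not settled. The methods describe a ratio of IP to input counts for every gene and pool. The value used here is the deposited mean of these ratios over all 7 pools of both lines. Values of single pools were not used here, so no spread between pools can be given and no test was made. The lines cannot be told apart in this mean. A ratio says how much of a gene's RNA was in the pulldown relative to the tissue, not how abundant the RNA was, and fewer expressing cells cannot be told apart from less RNA per cell.

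GABA-A receptors are chloride channels opened by GABA, the main inhibitory transmitter of the adult brain, and assemble from several subunits around a central pore. Alpha and beta subunits form the GABA binding site, and alpha and gamma subunits form the site for benzodiazepines. Many receptors with a gamma subunit sit at synapses, whereas alpha5 and delta subunits are known from extrasynaptic receptors that carry tonic inhibition. POMC neurons of the arcuate nucleus restrain feeding and receive GABA input, among others from AgRP neurons.

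The 3 alpha subunit genes among the members are close relatives, which bears on whether reads can be assigned to one of them. Coding sequences of Gabra2 and Gabra3 were 73.4% identical, those of Gabra3 and Gabra5 72.9% and those of Gabra2 and Gabra5 71.3%. A stretch of 60 coding bases in exon 8 of each gene, a well conserved part, is shown 5′ to 3′ on the coding strand to make the differences visible. Capitals mark the 45 bases that are identical in all 3 genes. The stretches lie on the minus strand of GRCm38 at chr5:71006171-71006230 for Gabra2, chrX:72451568-72451627 for Gabra3 and chr7:57418284-57418343 for Gabra5.
Gabra2: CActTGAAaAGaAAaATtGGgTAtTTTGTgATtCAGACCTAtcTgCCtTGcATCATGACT
Gabra3: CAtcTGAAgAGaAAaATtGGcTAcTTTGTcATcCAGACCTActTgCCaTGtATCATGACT
Gabra5: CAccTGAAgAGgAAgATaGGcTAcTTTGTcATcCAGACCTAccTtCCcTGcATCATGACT

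Within this stretch, Gabra5 shared 52 and Gabra2 49 of the 60 bases with Gabra3. The stretch was laid around the longest run shared by Gabra3 and Gabra5, so these counts do not rank the pairs. The longest run of identical bases between any pair of these coding sequences was 24, between Gabra3 and Gabra5. For Gabrg1 and Gabrg3 it was 17, with 69.5% identity overall. Windows of 75 bases, the read length given in the methods, were taken only from the principal transcript of each gene. Those of Gabra3, Gabrb1, Gabrd, Gabrg1 and Gabrg3 were shared with no transcript of another gene. Gabra5 shared 80 such windows, 3.08% of its transcript, with the antisense gene Gm9962, whose ratio was 1.82. Gabra2 shared 51 windows, 0.883% of its transcript, with transcripts of 63 other genes. The span of Gabrb1 overlapped that of the antisense gene Gm38562, whose ratio was 0.544, but the principal transcript of Gabrb1 shared no such window with it. Whether reads were counted by strand is not given in the sources used here, so within the 80 shared windows reads of Gabra5 cannot be told apart from those of Gm9962.

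The tagged population was checked by markers. All 6 POMC neuron markers were above 1, with a median ratio of 25.3, from 3.08 for Isl1, a transcription factor gene of arcuate neurons, to 172 for Pomc. All 12 astrocyte markers were below 1, from 0.326 for Slc1a3 to 0.558 for Gfap. All 12 oligodendrocyte markers were also below 1, from 0.350 for Mal to 0.556 for Mobp. Among 11 microglia markers 10 were below 1, from 0.377 for P2ry12, and Trem2 was at 1.15. Of 11 endothelial and mural markers, 7 were below 1, from 0.350 for Cdh5 to 1.55 for Pecam1, with a median of 0.967. Of 8 tanycyte and ependymal markers, 7 were below 1, from 0.396 for Nes to 3.90 for Vim. Of 4 markers of AgRP neurons, a neighbouring neuron type, 3 were above 1, with a median of 1.92, from 0.809 for Corin to 3.97 for Agrp. Of the 14 pan-neuronal genes, 12 were above 1, from 0.571 for Map2 to 1.96 for Uchl1, with a median of 1.30. The part of other cell types in the subunit ratios was not tested.

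The 7 subunit genes ranged from 0.733 for Gabrb1 to 2.04 for Gabrg3, a 2.79-fold range. Gabrg3 and Gabra5 stood at the top, Gabrd, Gabrg1, Gabra2 and Gabra3 lay close to 1, and Gabrb1 was the lowest. Above 1 were 5 of the 7 genes, which is 71.4%, against 62.4% of the 18379 protein-coding genes that were not at exactly 1. The median of the 7 genes was 1.05 and that of these protein-coding genes 1.14. Only Gabrg3 and Gabra5 were above this median of 1.14, which is meant below by the median protein-coding gene. Since the ratios were not scaled to library size, a ratio of 1 is not necessarily an equal share of both libraries. The rank among protein-coding genes is therefore given beside the ratio of each of the 7 genes. All other genes are given by ratio only.

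**Figure D1:**
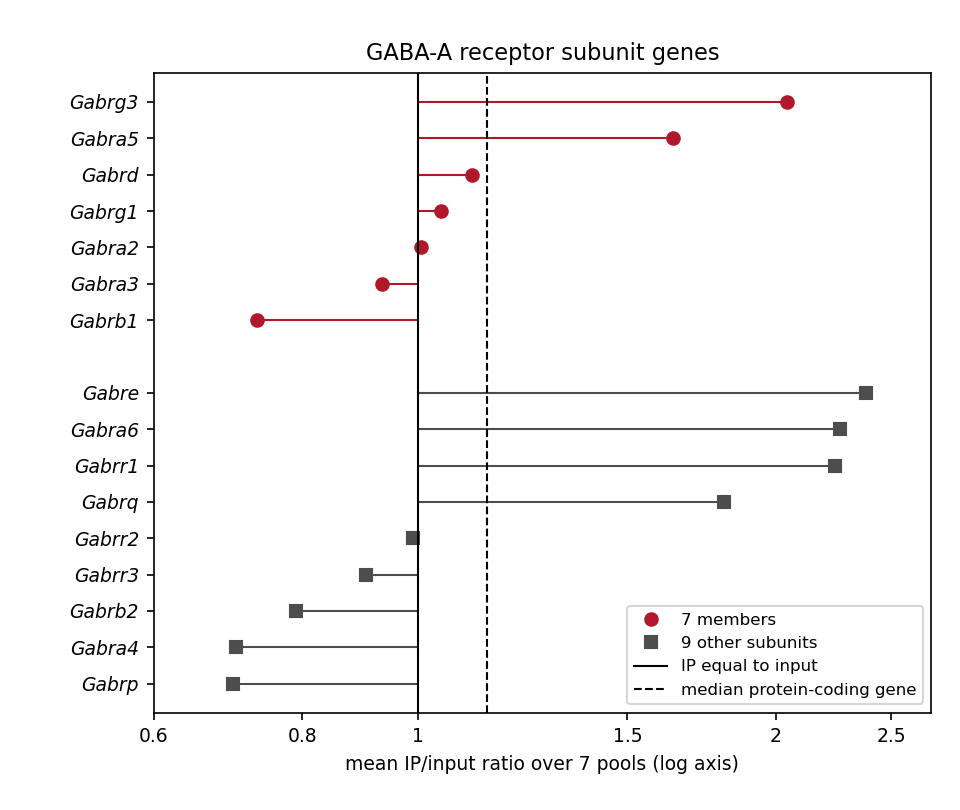
Mean IP/input ratio (log axis) of the 7 genes (red circles, upper block) and of 9 other GABA-A receptor subunit genes (grey squares, lower block), 1 point per gene, with a solid line at 1 and a dashed line at the median protein-coding gene (1.14). Gabrg3 (2.04) and Gabra5 (1.64) are the only red points to the right of the dashed line, and Gabrb1 (0.733) lies farthest to the left among the red points.

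Among the alpha subunits, Gabra5 (ENSMUSG00000055078) had a ratio of 1.64, or 0.71 on the log2 scale, at percentile 82.5 of protein-coding genes. The alpha5 subunit is best known from extrasynaptic receptors of hippocampal pyramidal cells. Gabra2 (ENSMUSG00000000560), whose subunit is found in synaptic receptors and at the axon initial segment, had a ratio of 1.01 and lay at percentile 38.0. Gabra3 (ENSMUSG00000031343), an alpha subunit of monoaminergic and other subcortical neurons, had a ratio of 0.934 and lay at percentile 32.6. Gabra5 thus stood 1.63-fold above Gabra2 and 1.75-fold above Gabra3. Gabra4, whose subunit pairs with delta in forebrain neurons, was at 0.703, and Gabra6, a subunit gene of cerebellar granule cells, was at 2.26.

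Gabrb1 (ENSMUSG00000029212) was the only beta subunit gene among the members, and beta subunits are required for nearly all GABA-A receptors. Its ratio of 0.733 was -0.45 on the log2 scale and lay at percentile 15.2. Gabrb2, another beta subunit gene, was at 0.790, and Gabrb1 was 0.928-fold of it.

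The gamma subunit genes among the members differed in rank. Gabrg3 (ENSMUSG00000055026) had a ratio of 2.04, or 1.03 on the log2 scale, and at percentile 91.7 it ranked highest of the 7 genes. Gabrg1 (ENSMUSG00000001260) had a ratio of 1.05 and lay at percentile 41.4. Gabrg3 was 1.95-fold above Gabrg1.

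Gabrd (ENSMUSG00000029054) encodes the delta subunit, which takes the place of gamma in receptors sensitive to neurosteroids. Its ratio was 1.11, or 0.15 on the log2 scale, at percentile 47.1, just under the median protein-coding gene not at exactly 1. Among all protein-coding genes Gabrd lay at percentile 54.3, above their median of 1.05. It was 1.58-fold above Gabra4.

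**Figure D2:**
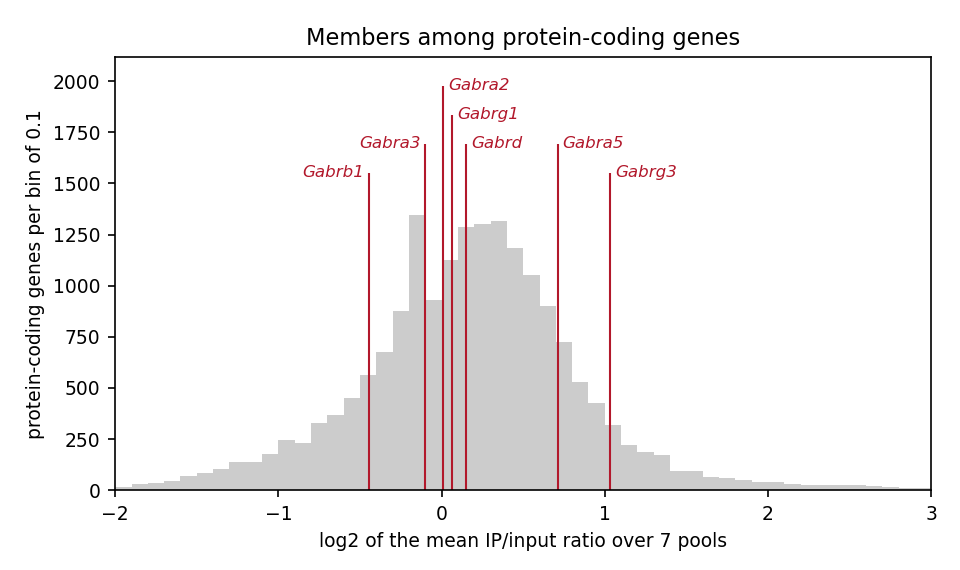
Distribution of the log2 mean IP/input ratio over protein-coding genes not at exactly 1 (grey, genes per bin of 0.1), with 1 red line for each of the 7 genes, whose heights only separate the labels. 18221 genes are drawn and 158 lie outside the axis. Gabra3, Gabra2, Gabrg1 and Gabrd fall in the middle of the distribution, Gabrb1 (-0.45) in its lower flank, and Gabra5 (0.71) and Gabrg3 (1.03) in its upper flank.

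In the order of ratios, Gabrg3 was 1.25-fold above Gabra5 and Gabra5 1.47-fold above Gabrd, the largest step between neighbours. Gabrd was 1.06-fold above Gabrg1, Gabrg1 1.04-fold above Gabra2, Gabra2 1.08-fold above Gabra3 and Gabra3 1.27-fold above Gabrb1. Without a spread between pools it cannot be said which neighbours differ.

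The other 12 subunit genes were split by the level of 1, with 6 above and 6 below, and had a median of 0.996. The highest was Gabre at 2.38, followed by Gabra6 at 2.26, Gabrr1 at 2.24 and Gabrq at 1.81. Gabre and Gabrq encode the epsilon and theta subunits, known from hypothalamic and brainstem neurons, and Gabrr1 a rho subunit best known from retina. Gabrr2 was at 0.991, Gabrr3 at 0.905 and Gabrp, the pi subunit gene, at 0.700. Over all 19 subunit genes, 11 were above 1 and 8 below, the median was 1.01, and 7 were above the median protein-coding gene.

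How many reads lie behind a ratio is unknown, but the values hold a trace of it. The deposited means are on a scale of 1000, and multiplying by 7 gave whole numbers for 100% of genes (tolerance 1e-06). Exactly 1 was the mean of 13059 genes. A further 1162 genes had a sum lower by 500 than 7 ratios of 1, which a single input read in 1 pool gives if 1 is added to each count. On that assumption and whole counts, sums that fewer than 3 reads in every library can give were found for 0 of the 7 genes and for 7.33% of protein-coding genes not at 1, and make up 1.41% of all whole sums from 3000 to 20000. In the family such sums were those of Gabra6 and Gabrr3. With fewer than 6 reads in every library, the sums of Gabra5 and Gabrb1 could be given, as could those of 29.5% of protein-coding genes and 20.8% of the same whole sums. Among the other subunit genes named here, the sum of Gabrp could then be given as well. A sum that few reads can give may also arise from many reads. A mean of ratios can rest on 1 pool, and whether it does for Gabrg3 or Gabra5 was not tested.

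The subunit genes lie in clusters, so the ratios were also read by position (GENCODE M21 annotation on GRCm38). Gabrg3 (chr7:56716465-57387188, minus strand) and Gabra5 (chr7:57407672-57510059, minus strand), the members with the highest ratios, are neighbours 20.5 kb apart. On chromosome 5, Gabrg1 (chr5:70751047-70842617, minus strand) lies 115 kb from Gabra2 (chr5:70957597-71095849, minus strand), and Gabra2 lies 474 kb from Gabra4. Gabra4 and Gabrb1 (chr5:71658113-72149037, plus strand) overlap by 196 bases at their start sites on opposite strands and had ratios of 0.703 and 0.733. Gabra3 (chrX:72432681-72656848, minus strand) lies between Gabre, 158 kb away, and Gabrq, 168 kb away, and both of these neighbours had higher ratios. Neighbours outside these clusters also had unlike ratios. Gabrr2 (0.991) and Gabrr1 (2.24) lie 36.7 kb apart on chromosome 4, and Gabra6 (2.26) and Gabrb2 (0.790) lie 98.7 kb apart on chromosome 11. On the assumption above, fewer than 3 reads in every library can give the sum of Gabra6. Gabrd (chr4:155384980-155398112, minus strand) has no other subunit gene nearby and is the shortest gene at 13.1 kb, against 671 kb for Gabrg3, the longest. The 7 genes have 9 or 10 exons in the principal transcript.

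**Figure D3:**
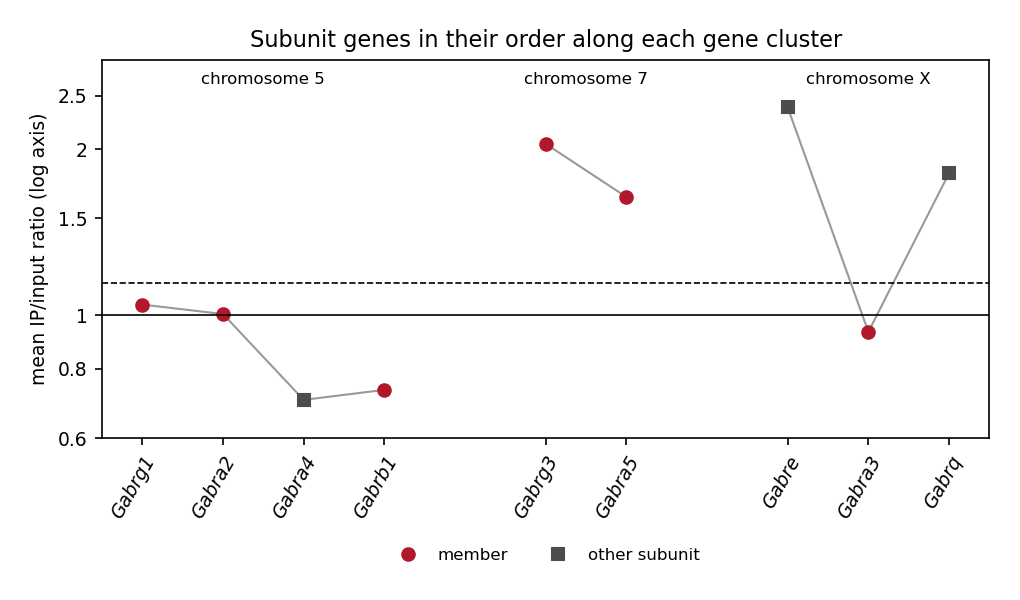
Mean IP/input ratio (log axis) of subunit genes in their order along the clusters on chromosomes 5, 7 and X, evenly spaced and not to genomic scale, with members as red circles and other subunits as grey squares. The solid line is at 1 and the dashed line at the median protein-coding gene (1.14). Gabrg3 (2.04) and Gabra5 (1.64) of chromosome 7 lie above the dashed line, whereas none of the 4 genes shown for chromosome 5 does.

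Sequences upstream of the start site were available for 6 of the 7 genes (RefSeq, GRCm38.p6), all but Gabrd. Shown are the 250 bases before the start, 5′ to 3′ on the gene's strand, for the members with the highest ratios and the one with the lowest. They are Gabrg3 at chr7:57387216-57387465 (minus strand), Gabra5 at chr7:57510060-57510309 (minus strand) and the first of the start sites of Gabrb1 at chr5:71657671-71657920 (plus strand). Capitals mark GGGCGG on either strand, the GC box.
Gabrg3: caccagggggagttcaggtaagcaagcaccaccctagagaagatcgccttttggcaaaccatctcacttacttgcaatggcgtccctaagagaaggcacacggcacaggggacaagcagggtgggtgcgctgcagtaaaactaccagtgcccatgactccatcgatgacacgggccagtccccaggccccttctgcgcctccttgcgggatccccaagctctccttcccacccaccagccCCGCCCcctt
Gabra5: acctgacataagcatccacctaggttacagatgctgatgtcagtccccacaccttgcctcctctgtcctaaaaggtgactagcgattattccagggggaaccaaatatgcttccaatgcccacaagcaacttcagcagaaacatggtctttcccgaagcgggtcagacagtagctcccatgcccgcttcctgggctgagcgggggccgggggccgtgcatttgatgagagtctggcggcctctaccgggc
Gabrb1: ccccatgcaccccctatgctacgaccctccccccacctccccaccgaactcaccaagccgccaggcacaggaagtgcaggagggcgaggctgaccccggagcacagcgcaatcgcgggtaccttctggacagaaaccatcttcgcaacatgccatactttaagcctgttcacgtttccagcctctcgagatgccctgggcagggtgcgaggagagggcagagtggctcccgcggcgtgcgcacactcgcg

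The GC content of these windows was 60.4% for Gabrg3, 56.4% for Gabra5 and 64.4% for Gabrb1, against a median of 52.4% over 32851 windows of the same length. CpG dinucleotides numbered 9 for Gabrg3, 9 for Gabra5 and 18 for Gabrb1, against a median of 6. The windows not shown ranged more widely. Gabra2 had 70.0% GC and 18 CpG, and the second Gabrb1 start had 50.8% and 6. Gabrg1 had 35.6% and 1, and the start sites of Gabra3 had 42.4% and 39.2% with 0 CpG. GGGCGG was found for Gabrg3 and Gabra2 among the members and in 32.7% of all windows. TATAAA, the TATA box, was found for Gabra3 and in 12.4% of all windows. CGCATGCG was found at the second Gabrb1 start, at chr5:71699682-71699931, and in 1.55% of all windows. CACGTG, a form of the E-box, and TGACGTCA, the cAMP response element, were found at no member start and in 6.02% and 1.55% of all windows. Other forms of the E-box were not searched. All motifs were searched on both strands and none overlaps another in the members' windows. A match describes letters only.

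Genes around the receptor were described as lists. Of 18 genes for receptor assembly, trafficking and clustering, 10 were above 1 and 8 below, with a median of 1.12. Gabarap, which encodes a protein that takes part in receptor traffic, was highest at 2.08, and Mdga1, which encodes an inhibitor of neuroligin binding, lowest at 0.782. Of 8 genes for GABA synthesis, release, uptake and breakdown, 2 were above 1 and 6 below, with a median of 0.847. Gad1, which makes GABA from glutamate, was at 1.69, and Slc6a11, an astrocytic GABA transporter gene, at 0.469. Of the chloride cotransporters, which set whether GABA inhibits or excites, Slc12a5 (KCC2, extrusion) was at 1.11 and Slc12a2 (NKCC1, uptake) at 0.503. The median of the 7 subunit genes, 1.05, lay above the medians of the astrocyte (0.403), oligodendrocyte (0.457) and microglia (0.472) lists. It was also above the tanycyte and ependymal median (0.720) and close to the endothelial and mural median (0.967). The pan-neuronal (1.30), AgRP neuron (1.92) and POMC neuron (25.3) medians were higher. Gabrg3 (2.04) and Gabra5 (1.64) were above the pan-neuronal median.

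**Figure D4:**
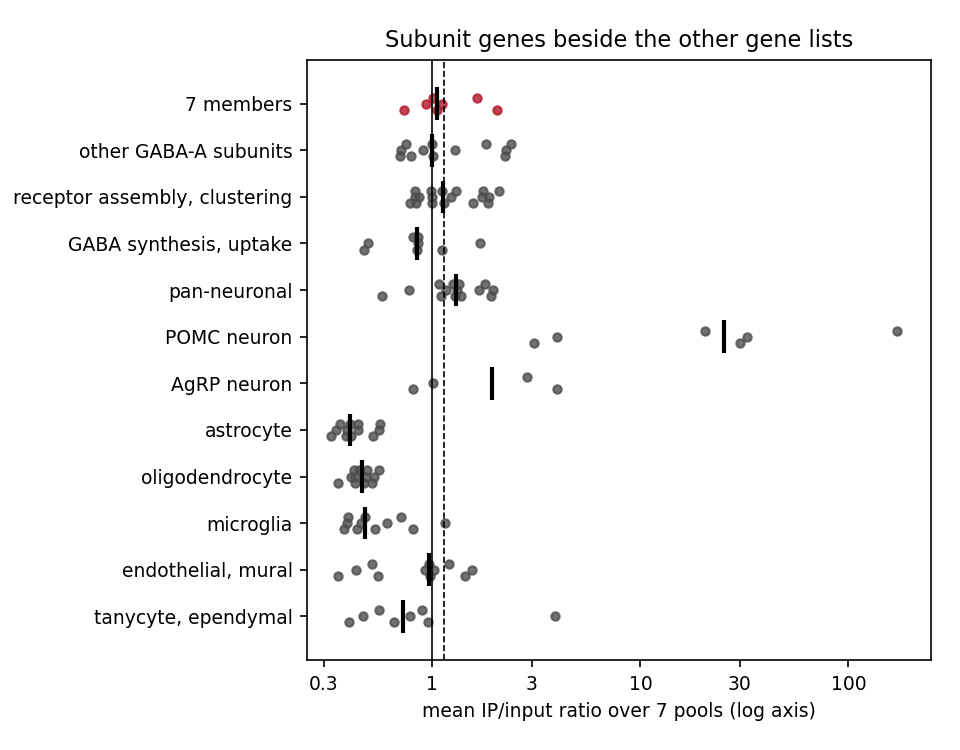
Mean IP/input ratio (log axis) of each gene of the lists except the chloride cotransporters, 1 point per gene with a black bar at the list's median, the 7 subunit genes in red at the top. The solid line is at 1 and the dashed line at the median protein-coding gene (1.14). The subunit genes spread from 0.733 to 2.04, above all astrocyte and oligodendrocyte markers and below all 6 POMC neuron markers. Some markers of the other lists fall within this range, among them Trem2 (1.15) and Pecam1 (1.55). Vim (3.90) and Agrp (3.97) lie above it.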

How the data were processed

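Per the labels and the study's methods, RNA of 14 libraries (input and IP of 3 POMC Glp1r+ and 4 POMC Lepr+ pools) was aligned to GRCm38.p6 with STAR and counted per gene with Salmon 0.14.1 in the nf-core/rnaseq workflow. Read length is given as 75 and 100 bases and the Ensembl release as 97 and 96. The authors formed the ratio of IP to input counts per pool and tested the lines against each other with DESeq2 1.26.0. The deposited table holds a mean, which is a score (the mean over all pools of IP/input ratios on a scale of 1000, with no library-size scaling apparent in the values), and 5 columns of the authors' comparison of the lines (fold change, its standard error, test statistic and p-values), which were not used. The main design allowed a test only on values of single libraries, so none was made, and intervals and floors were not given because depth is unknown.

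The mean was divided by 1000 and ranked among protein-coding genes not at exactly 1. Positions, exons and shared windows of 75 bases came from GENCODE M21, in which 44116 of 44672 identifiers were found, and upstream sequences from RefSeq. The ranking and the sums that few reads can give were tested on simulated data. Named were the 7 members, 9 other subunit genes, Pomc, and the highest and lowest gene of each other list. Some genes the rule would name are not reported here, although counts and medians include them. Gm9962 and Gm38562, the pairs compared, the conserved stretch, the windows shown and the motifs were chosen after values were seen. The members and the 13 lists were chosen with earlier results of these data known. Python 3.11.15, numpy 2.4.6, pandas 2.3.3, matplotlib 3.10.9 and Biopython 1.88 were used.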

Additional observations from a re-analysis of the deposited data

How the results depend on the processing

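The count of the 7 subunit genes above input depended on what was taken as input. It was 5 above a ratio of 1, 3 above 1.1, and 2 above 1.5, above the median protein-coding gene not at 1 or above the pan-neuronal median. By alternatives chosen after seeing the data it was 3 above the median of all protein-coding genes and 2 above the median of those whose sums fewer than 6 reads cannot give. The median of the 7 genes was 1.05, their geometric mean 1.15 and the median of all 19 subunit genes 1.01. Leaving out 1 gene at a time gave medians of 1.03 to 1.08. Percentiles moved by up to 22.4 points, for Gabra2, which was at 60.5 among all genes. Gabrg3 stayed between 91.2 and 93.3, Gabra5 between 81.4 and 87.4 and Gabrb1 between 12.1 and 15.4.

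No paired analysis was possible because the value used is a mean over all pools and came from no test. For the same reason the pseudocount, the filter on low values and leaving out a pool were not run. The depth behind each ratio is unknown, a single pool can decide a mean, and the ratios carry no spread, so differences between neighbouring genes cannot be judged.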
